A study of Mus musculus with 2 samples.

Results

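Aqp4, Aqp1, Aqp11, Mlc1, Hepacam, Dag1, Kcnj10, Dtna and Gjb6 encode water channels and the membrane proteins that sit with them at the end-feet of astrocytes. They were taken by gene symbol, 9 of the 26033 genes in the count matrices, and followed through every cell type of 2 single-cell RNA libraries from the brains of adult mice. One library, the control, is of genotype Csf1rfl/fl: both copies of Csf1r, which encodes a growth factor receptor of macrophages, are floxed. The other, the mutant, is of genotype Mrc1Cre:Csf1rfl/fl and adds Cre recombinase under Mrc1, a gene active in macrophages at the brain's borders, to the floxed alleles that both genotypes share. The study's title names interleukin-34, a ligand of the Csf1r protein, perivascular macrophages and vascular function. Both libraries pooled cells sorted with antibodies for mural cells and fibroblasts, endothelial cells, astrocytes (ACSA-2), border-associated macrophages and microglia. There was 1 library per genotype, and how many animals went into each is not given in the sources used here. No test between genotypes can therefore be made, and every interval below covers counting error only.

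Astrocytes wrap brain capillaries with end-feet whose membrane facing the vessel is packed with aquaporin-4, the main water channel of the brain. Aquaporin-4 is held there through dystrophin-associated proteins: dystroglycan binds laminin in the basement membrane, and dystrobrevin belongs to the same complex inside the cell. The inwardly rectifying potassium channel Kir4.1, MLC1 with its adhesion partner GlialCAM, and the gap junction protein connexin 30 lie in the same membrane or join neighbouring end-feet. Aquaporin-1 is the water channel of the choroid plexus epithelium, which makes cerebrospinal fluid, and aquaporin-11 is a distant member of the family found mainly on intracellular membranes. Ependymal cells line the ventricles and also carry aquaporin-4.

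The 3 promoters shown here belong to members with different patterns over the cell types described next: Kcnj10 was an astroglial gene, Gjb6 was high in astrocyte-like and in fibroblast-like cells, and Aqp1 was a choroid plexus gene. Each is the stretch of 250 bases before the start of the gene in RefSeq, written 5′ to 3′ on the strand of the gene, with build GRCm38.p6 coordinates chr1:172340960-172341209 on the plus strand for Kcnj10, chr14:57133612-57133861 on the minus strand for Gjb6 and chr6:55336049-55336298 on the plus strand for Aqp1. No annotated exon overlapped them. Capitals mark matches on either strand to 4 motifs that were searched: the GC box GGGCGG, the TATA box TATAAA, the nuclear factor I half-site TGCCAA and the SOX core AACAAT.
Kcnj10: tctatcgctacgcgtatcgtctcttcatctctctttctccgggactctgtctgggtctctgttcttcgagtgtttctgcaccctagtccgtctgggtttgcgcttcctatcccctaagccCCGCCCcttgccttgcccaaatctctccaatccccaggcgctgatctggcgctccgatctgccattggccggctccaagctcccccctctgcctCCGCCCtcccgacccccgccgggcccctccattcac
Gjb6: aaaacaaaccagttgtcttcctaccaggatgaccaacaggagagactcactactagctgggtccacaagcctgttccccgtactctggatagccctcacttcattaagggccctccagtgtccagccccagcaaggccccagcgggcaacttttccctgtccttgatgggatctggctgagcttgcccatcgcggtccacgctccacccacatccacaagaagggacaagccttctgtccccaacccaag
Aqp1: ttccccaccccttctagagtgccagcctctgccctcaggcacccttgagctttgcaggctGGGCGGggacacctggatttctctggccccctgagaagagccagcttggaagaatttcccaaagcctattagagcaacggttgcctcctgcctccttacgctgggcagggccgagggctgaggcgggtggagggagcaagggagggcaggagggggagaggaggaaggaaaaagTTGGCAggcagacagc
The Kcnj10 stretch held 2 GC boxes, both on the opposite strand, and the Aqp1 stretch held 1 GC box and 1 nuclear factor I half-site. The Gjb6 stretch held none of the 4 motifs, which says only that these letters are not in this window. Among 32851 RefSeq promoters, 32.7% held a GC box, 12.4% a TATA box, 12.3% the half-site and 9.42% the SOX core in the same stretch, so a match is a description and not a binding site.

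The control matrix held 8739 barcodes with 85716531 unique molecular identifiers (UMIs, each standing for 1 RNA molecule), and the mutant matrix 8735 barcodes with 82806348 UMIs. After filters on detected genes, mitochondrial UMIs and doublets, 5609 control and 6123 mutant cells were kept, and 17 barcode sequences occurred in both libraries. Cell types were rebuilt by clustering without the 9 genes and were named from marker genes, so they are written as "like". Levels are given as CPM, a gene's UMIs in every 1000000 UMIs summed over the cells of a type in 1 library. Astrocyte-like cells fell into 3 types: telencephalic (204 control and 55 mutant cells), non-telencephalic (425 and 160) and Bergmann glia-like (34 and 26). The telencephalic and the Bergmann glia-like clusters each also held 3 of the 5 non-telencephalic markers, and the Bergmann glia-like one held 1 telencephalic marker. There were 48 and 87 ependymal-like, 631 and 1070 choroid plexus epithelium-like, 128 and 184 endothelial-like, 46 and 56 fibroblast-like and 3042 and 3223 microglia-like cells. An unnamed cluster of 137 control and 424 mutant cells was led by Ccn3 and Slc47a1, and a small unnamed cluster of 11 and 17 cells by Npy. Another of 413 and 489 cells, led by Lysmd4 with a median of 2537 UMIs, held 8 microglia markers. It was not counted as microglia-like. A pericyte-marked cluster of 16 and 36 cells, which also held 8 microglia markers, was left unnamed too. The border-associated macrophage-like cells, the target of the deletion, were 358 in the control (6.38% of kept cells) and 143 in the mutant (2.34%). Csf1r stood at 1520 CPM in control and 1246 CPM in mutant border-associated macrophage-like cells, and at 2323 and 1863 CPM in microglia-like cells. Since 3′ counts may fall outside the floxed stretch, they cannot serve as a check of the deletion.

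Aquaporin-4 was highest in the 3 astrocyte-like types and in ependymal-like cells. Aqp4 stood at 1473 CPM in control (95% interval 1437 to 1511) and 1511 CPM in mutant (1443 to 1581) non-telencephalic astrocyte-like cells. In Bergmann glia-like cells it was 1289 and 1061 CPM, in telencephalic astrocyte-like cells 838 and 978 CPM, and in ependymal-like cells 846 and 813 CPM. The non-telencephalic type lay above the next type in both libraries, while the telencephalic and ependymal-like values overlapped. Aqp4 was detected in 93.9% and 96.9% of non-telencephalic cells and in 97.9% and 100% of ependymal-like cells. Each cell was then thinned to 2000 UMIs, which removes differences in depth, and cells with fewer UMIs were left out. The thinned shares were 79.2% and 84.3% in the non-telencephalic and 72.9% and 78.2% in the ependymal-like type. Microglia-like cells, where no aquaporin-4 would be made, stood at 15.8 CPM in control and 6.78 CPM in mutant and gave a thinned share of 3.81% and 1.18%. In choroid plexus epithelium-like cells Aqp4 stood at 7.04 and 5.50 CPM, below the microglia-like level of the same library, and this is read as background. In the mutant, 32.6% of those choroid plexus UMIs lay in 1 cell. Neuron-like and Npy-led cells of the control held Aqp4 at 277 and 274 CPM, with 64.7% and 74.4% of the UMIs in 1 cell, and at 12.1 and 5.86 CPM in the mutant.

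Aquaporin-1 was the choroid plexus water channel of the set. Aqp1 stood at 84.8 CPM (79.6 to 90.2) in control and 77.1 CPM (73.0 to 81.3) in mutant choroid plexus epithelium-like cells, and 91.1% and 87.9% of all its UMIs in kept cells lay there. It was detected in 67.5% and 60.5% of these cells at full depth and in 15.5% and 13.5% after thinning, against 0.592% and 0.559% of microglia-like cells at full depth. In the 3 astrocyte-like types Aqp1 had between 0 and 8 UMIs per library. Its highest level was in the small Npy-led cluster, at 306 CPM in control and 487 CPM in mutant, with a UMI in 90.9% and 70.6% of the cells. Erythroid-like cells had 0 Aqp1 UMIs in 15 control cells, where 3 UMIs would be 9.20 CPM, and 30 UMIs (48.6 CPM) in 28 mutant cells, 46.7% of them in 1 cell. The aquaporin-1 protein is the water channel of red blood cells.

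Aquaporin-11 was highest in the Npy-led cluster (95.6 and 129 CPM) and in endothelial-like cells (79.2 CPM in control, 57.3 to 107, and 124 CPM in mutant, 99.4 to 153). These types overlapped. Aqp11 was 17.6 and 16.3 CPM in telencephalic astrocyte-like cells, 10.3 and 10.5 CPM in non-telencephalic ones and 10.7 and 11.99 CPM in choroid plexus epithelium-like cells, all above the microglia-like level of 0.980 and 1.18 CPM. Thinned to 2000 UMIs, 14.9% of control and 26.2% of mutant endothelial-like cells held a UMI. Endothelial-like cells held Aqp4 at 42.4 and 12.8 CPM and Aqp1 at 1.84 and 4.28 CPM. The Aqp4 levels lay below the 62.9 and 16.2 CPM of the unnamed Lysmd4-led cluster, which held microglia markers.

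**Figure D1:**
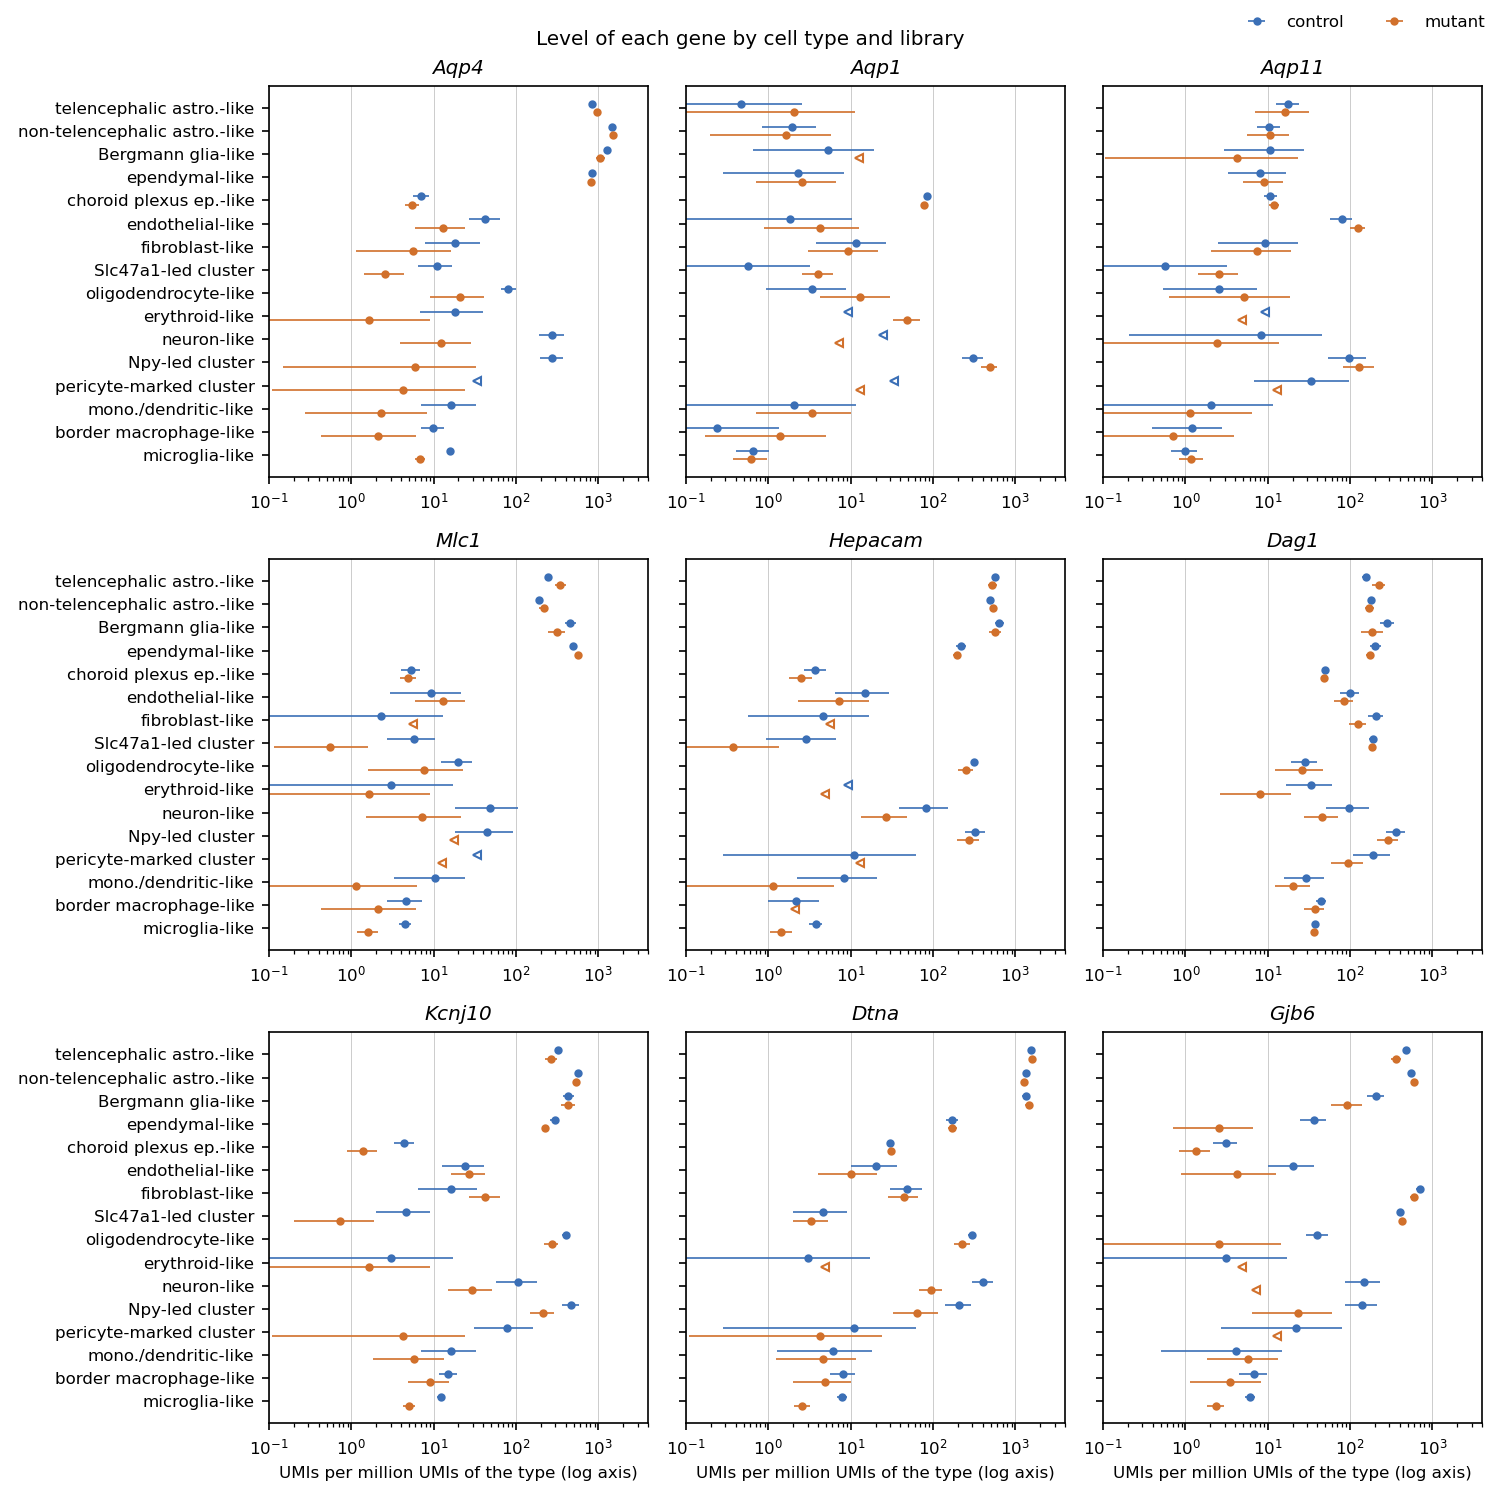
Level of each of the 9 genes (log axis, CPM) in 16 cell types, control in blue and mutant in orange, with exact Poisson 95% intervals. Open triangles mark a count of 0 and stand at the level that 3 UMIs would give. Aqp4, Mlc1, Hepacam, Kcnj10 and Dtna are high in the 4 upper rows, and Aqp1 in choroid plexus and the Npy-led cluster. Dag1 has UMIs in every row, with its lowest levels in the erythroid-like, oligodendrocyte-like and immune types.

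MLC1, a membrane protein of astrocytes mutated in megalencephalic leukoencephalopathy, had its highest level in ependymal-like cells. Mlc1 stood there at 498 CPM (452 to 548) in control and 574 CPM (536 to 613) in mutant. Bergmann glia-like cells followed with 459 and 314 CPM, telencephalic astrocyte-like cells with 247 and 345 CPM and non-telencephalic ones with 190 and 217 CPM. Ependymal-like cells lay above Bergmann glia-like cells in both libraries, with intervals that overlapped in the control, and the Bergmann glia-like and telencephalic values overlapped. In the mutant 56.8% of all Mlc1 UMIs came from ependymal-like cells against 19.4% in the control, next to 87 and 48 cells of that type. Hepacam, which encodes the GlialCAM partner of MLC1, had another order: 641 and 570 CPM in Bergmann glia-like, 567 and 526 CPM in telencephalic, 489 and 532 CPM in non-telencephalic and 220 and 196 CPM in ependymal-like cells. The intervals of neighbouring astrocyte-like types overlapped in Hepacam. The small Npy-led cluster held it at 325 and 270 CPM, from 51 and 46 UMIs. Oligodendrocyte-like cells held Hepacam at 318 and 250 CPM with Mlc1 at only 19.6 and 7.74 CPM, where 34.8% of the control Mlc1 UMIs lay in 1 cell.

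Dystroglycan and dystrobrevin differed in breadth. Dag1, the gene of dystroglycan, stood between 156 and 283 CPM in all astrocyte-like types and in ependymal-like cells of both libraries. In the unnamed clusters it stood at 188 and 186 CPM (Slc47a1-led) and at 357 and 287 CPM (Npy-led). In fibroblast-like cells it was 205 CPM in control and 124 CPM in mutant, the latter below the glial range. Dag1 in microglia-like cells was 37.0 and 36.5 CPM, about the same in both libraries, and 19.7% and 19.6% of its level in the Slc47a1-led cluster. The 8 other members stood in microglia-like cells at between 0.164% and 2.13% of the level in their highest type. The Npy-led cluster was left aside for this, and Dag1 stood apart from that low share. Dtna, the gene of alpha-dystrobrevin, was narrow: 1531 and 1577 CPM in telencephalic, 1329 and 1455 CPM in Bergmann glia-like and 1351 and 1274 CPM in non-telencephalic astrocyte-like cells, then 300 and 227 CPM in oligodendrocyte-like and 170 and 172 CPM in ependymal-like cells. The 7 control neuron-like cells held it at 399 CPM, with 46.9% of the UMIs in 1 cell, and the 32 mutant ones at 94.5 CPM. It was detected in every telencephalic cell of both libraries, and in 91.6% and 88.7% of them after thinning. In choroid plexus epithelium-like cells Dtna stood at 30.3 and 30.9 CPM, above the 7.84 and 2.59 CPM of microglia-like cells.

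Kir4.1, the channel that lets astrocytes take up potassium, had its highest level in non-telencephalic astrocyte-like cells. Kcnj10 stood there at 575 CPM (552 to 598) in control and 543 CPM (503 to 586) in mutant, then at 432 and 428 CPM in Bergmann glia-like, 401 and 271 CPM in oligodendrocyte-like, 328 and 266 CPM in telencephalic and 294 and 228 CPM in ependymal-like cells. The Npy-led cluster held Kcnj10 at 465 CPM (365 to 585) in 11 control cells, from 73 UMIs of which 38.4% lay in 1 cell, and at 211 CPM in 17 mutant cells, from 36 UMIs. The non-telencephalic type lay above all other types in both libraries by value. Its interval overlapped that of the Npy-led cluster in the control and that of Bergmann glia-like cells in the mutant, and the telencephalic and ependymal-like values overlapped. Endothelial-like cells held 23.9 and 27.1 CPM, from 13 and 19 UMIs, beside 31.5 and 7.43 CPM in the unnamed Lysmd4-led cluster.

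The gene of connexin 30 was high in astrocyte-like types, in fibroblast-like cells and in the unnamed Slc47a1-led cluster. Gjb6 stood at 709 CPM (632 to 793) in control and 592 CPM (529 to 661) in mutant fibroblast-like cells, at 549 and 589 CPM in non-telencephalic and 483 and 362 CPM in telencephalic astrocyte-like cells, and at 404 and 432 CPM in the Slc47a1-led cluster. Fibroblast-like cells lay above non-telencephalic cells by value, with intervals that overlapped in the mutant and not in the control. Bergmann glia-like cells held less, 205 CPM in control and 92.2 CPM in mutant from 77 and 22 UMIs. In ependymal-like cells Gjb6 was 35.9 CPM in control and 2.58 CPM in mutant, and 61.3% of the 31 control UMIs lay in 1 of the 48 cells. The share of all Gjb6 UMIs in the Slc47a1-led cluster was 14.6% in control and 63.0% in mutant, next to a cell count of 137 and 424.

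The members lie on 7 chromosomes of the GRCm38 build, in the GENCODE M21 annotation, all as protein-coding genes. Aqp4 spans chr18:15389496-15410982 on the minus strand and Dtna chr18:23415135-23659715 on the plus strand. Each has an annotated antisense gene within it, AC133525.2 and Gm47898, and how the counting used strand is not given in the sources used here. Hepacam (chr9:37367351-37386575, plus strand) and Dag1 (chr9:108204634-108263958, minus strand) share a chromosome. Kcnj10 lies at chr1:172341210-172374085 (plus), Aqp1 at chr6:55336432-55348555 (plus), Aqp11 at chr7:97724006-97738289 (minus), Gjb6 at chr14:57123303-57133611 (minus) and Mlc1 at chr15:88955884-88979007 (minus). No other annotated gene overlaps these 7.

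The astrocyte-like types were then compared within each library, which needs no comparison between genotypes. A size rule stood in for a test: at least 50 UMIs, a ratio of 1.5-fold or more either way, and a 95% interval that leaves out 1. Against non-telencephalic cells, telencephalic cells were lower in Aqp4 and Kcnj10 in both libraries, 2 of the 7 members measured in both, while 5.90% of all genes met the rule in that direction. The Aqp4 ratio was 0.569 (0.539 to 0.599) in control and 0.647 (0.584 to 0.716) in mutant, and the Kcnj10 ratio 0.571 (0.524 to 0.621) and 0.490 (0.403 to 0.592). The Dtna ratio was above 1, at 1.13 and 1.24, and so was that of Mlc1, at 1.30 and 1.59. With a per-cell marker gate the mutant Mlc1 ratio was 0.996. None of the 7 was higher by the rule in both libraries, where 9.42% of all genes were. With finer clustering (Leiden resolution 2) the Aqp4 ratio was 0.657 and 0.729 and only Kcnj10 met the rule in both. Against Bergmann glia-like cells, non-telencephalic cells were higher by the rule in both libraries for 1 of 7 members, Gjb6 (2.67-fold in control and 6.39-fold in mutant), where 11.8% of all genes were, and lower for 0 of 7, where 14.0% of all genes were. The Mlc1 ratio in that comparison was 0.413 in control and 0.690 in mutant.

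Ependymal-like cells held the same genes at other levels than astrocyte-like cells. Against non-telencephalic astrocyte-like cells, 1 of 7 members was higher in both libraries, Mlc1, at 2.63 (2.33 to 2.96) in control and 2.64 (2.30 to 3.04) in mutant, where 32.9% of all genes met the rule in that direction. Lower in both were 5 of 7, where 26.0% of all genes were: Aqp4 (0.574 and 0.538), Hepacam (0.450 and 0.369), Kcnj10 (0.512 and 0.420), Dtna (0.126 and 0.135) and Gjb6 (0.0654 and 0.00438). Dag1 was near 1, with 1.12 (0.945 to 1.32) and 1.01 (0.844 to 1.22). Dtna and Gjb6 had the lowest ratios of the 7, and the Gjb6 ratios rest on 31 and 4 UMIs there.

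**Figure D2:**
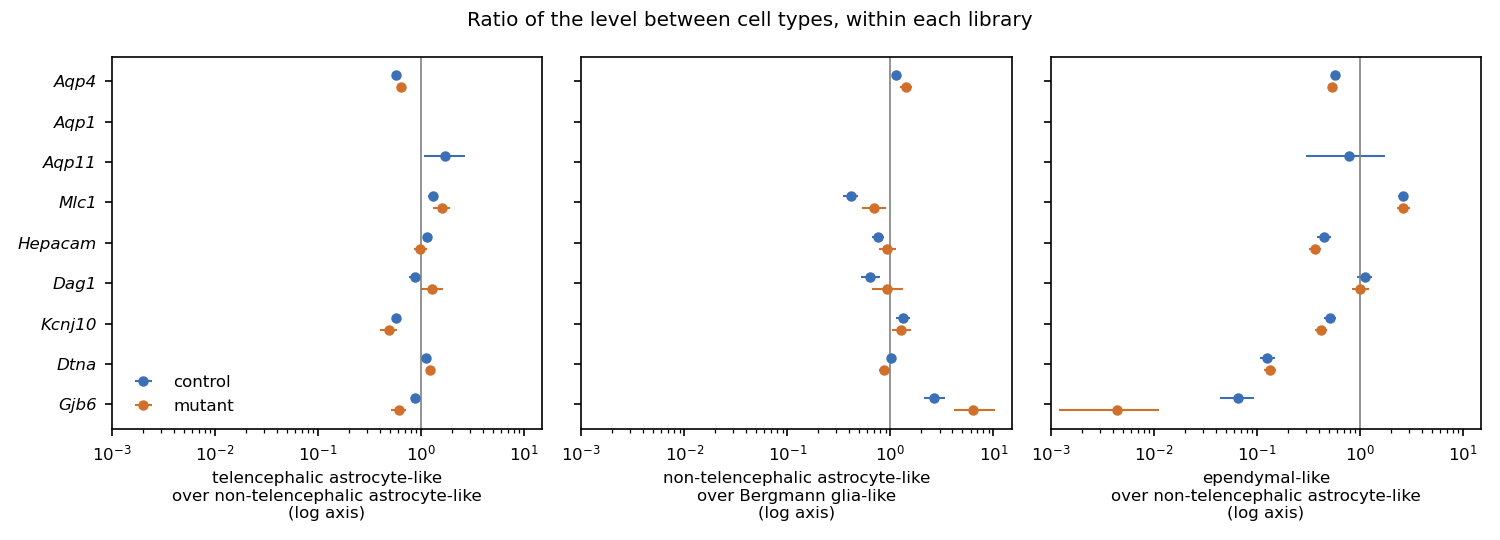
Ratio of the level (log axis) of each measured member between cell types, within control (blue) and mutant (orange), with exact 95% intervals for 2 Poisson counts. Left, telencephalic over non-telencephalic astrocyte-like cells. Middle, non-telencephalic over Bergmann glia-like. Right, ependymal-like over non-telencephalic, with Mlc1 at 2.63 and 2.64 to the right of 1 and Dtna at 0.126 and 0.135 to the left.

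Most single cells of the astrocyte-like types held several of these RNAs at once. Of the 7 end-foot members (all but Aqp1 and Aqp11), a cell thinned to 2000 UMIs held a median of 4 in telencephalic and non-telencephalic cells of both libraries, 4 and 3 in Bergmann glia-like and 3 in ependymal-like cells. At least 3 were found in 80.8% of control and 81.1% of mutant telencephalic, 84.5% and 86.8% of non-telencephalic and 58.3% and 56.3% of ependymal-like cells. The share was 0.0343% in control microglia-like cells (1 of 2912) and 0 of 3041 in mutant ones, and 0 of 621 and 2 of 1065 in choroid plexus epithelium-like cells. Summed over the 7 genes, the median cell stood at 4632 CPM in control and 4669 CPM in mutant non-telencephalic cells. Single cells ranged from 457 to 14445 CPM in the control and from 831 to 10791 CPM in the mutant.

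**Figure D3:**
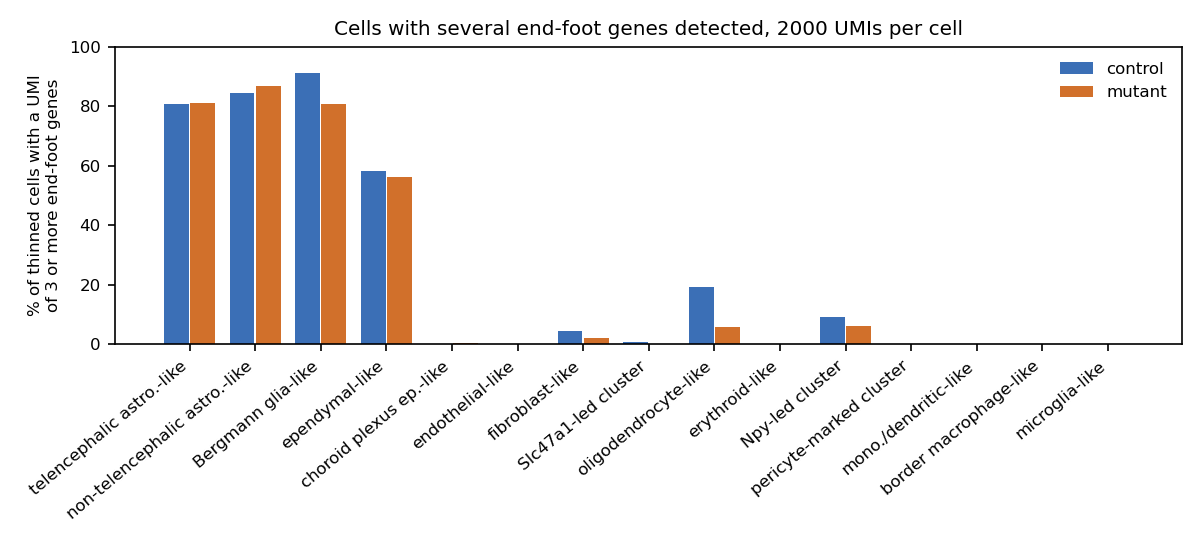
Share of cells, thinned to 2000 UMIs each, with a UMI of at least 3 of the 7 end-foot genes, by cell type (control blue, mutant orange, types with at least 10 thinned cells in each library). The astrocyte-like types stand between 80.8% and 91.2%, ependymal-like cells at 58.3% and 56.3%, and the immune, endothelial and choroid plexus types at or near 0.

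In telencephalic and non-telencephalic astrocyte-like and in ependymal-like cells no member differed between the libraries by the size rule, while Bergmann glia-like cells held less Gjb6 and Dag1 in the mutant. By the size rule 0 of 8 measured members were higher or lower in mutant non-telencephalic cells, where 3.48% of all genes were higher and 1.81% lower. The Aqp4 ratio was 1.03 (0.973 to 1.08), Kcnj10 0.945 (0.866 to 1.03), Hepacam 1.09 (0.994 to 1.19), Dtna 0.943 (0.891 to 0.997), Gjb6 1.07 (0.986 to 1.17) and Mlc1 1.14 (0.993 to 1.32). With at most 5% mitochondrial UMIs, which left 99 and 39 of these cells, 2 of 7 met the rule as higher, Mlc1 at 1.80 and Gjb6 at 1.68, and Aqp4 was at 1.38. In telencephalic cells 0 of 7 met the rule, against 4.60% of all genes higher and 2.85% lower. There the Aqp4 ratio was 1.17 (1.05 to 1.29), Mlc1 1.40 (1.17 to 1.66), Dag1 1.42 (1.13 to 1.76), Kcnj10 0.812 (0.669 to 0.980) and Gjb6 0.748 (0.635 to 0.878), all short of 1.5-fold. The mutant type had 55 cells, and up to 13.7% of a member's UMIs, for Kcnj10, came from 1 of them. When cells were instead gated one by one on markers (80 and 24 telencephalic cells), Hepacam at 0.527, Dtna at 0.492 and Gjb6 at 0.412 met the rule as lower. In ependymal-like cells 0 of 6 met it, against 2.62% of all genes higher and 4.63% lower, with Aqp4 at 0.961 (0.876 to 1.05), Mlc1 at 1.15 (1.02 to 1.29) and Kcnj10 at 0.776 (0.658 to 0.915). The median log2 ratio of the measured members was 0.03 in non-telencephalic, 0.04 in telencephalic and -0.11 in ependymal-like cells, beside 0.05, -0.01 and 0.01 over all genes measured in the same cells.

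Some RNAs of other cells moved with the libraries in these types. The summed erythroid markers stood at 6359 CPM in control and 128 CPM in mutant non-telencephalic cells, and at 9286 and 45.8 CPM in ependymal-like cells, while in telencephalic cells they were 69.6 and 522 CPM. Choroid plexus markers stood at 2343 and 4032 CPM in telencephalic and at 2229 and 6142 CPM in ependymal-like cells. Their part in the members' ratios was not tested.

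Bergmann glia-like and fibroblast-like cells, with 34 and 26 and with 46 and 56 cells, were added to the comparison of the libraries after the data were seen. In Bergmann glia-like cells 2 of 7 measured members were lower in the mutant and 0 higher, against 6.58% of all genes lower and 8.06% higher. Gjb6 stood at 205 CPM in control, from 77 UMIs, and 92.2 CPM in mutant, from 22 UMIs (ratio 0.449, 0.266 to 0.729), with a UMI in 67.6% and 53.8% of the cells. Dag1 stood at 283 and 184 CPM, from 106 and 44 UMIs (0.652, 0.448 to 0.935). The Dag1 ratio was short of the rule with no cap on mitochondrial UMIs (0.707) and under the per-cell marker gate (0.853), while Gjb6 met it in every alternative run, at 0.428 to 0.519. Mlc1 had a ratio of 0.685 (0.515 to 0.904), and it met the rule with trimmed-mean scaling (0.654) and with equal weight per cell (0.619). Aqp4 was at 0.823 (0.704 to 0.960), Hepacam at 0.890, Kcnj10 at 0.989 and Dtna at 1.09. The summed choroid plexus markers stood at 12335 CPM in control and 2348 CPM in mutant Bergmann glia-like cells, the border-associated macrophage markers at 13.3 and 801 CPM and the astrocyte markers at 23496 and 21296 CPM. Their part in these ratios was not tested. With trimmed-mean scaling in place of type totals, for which the factor of the mutant lay between 0.964 and 1.05, the count of members lower in Bergmann glia-like cells was 3, and no other count of members changed.

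In fibroblast-like cells 1 of 2 measured members was lower in the mutant and 0 higher, against 8.58% of all genes lower and 7.40% higher. Dag1 stood at 205 and 124 CPM, from 89 and 67 UMIs (0.605, 0.434 to 0.840). The call was lost without doublet removal (0.706), with no cap on mitochondrial UMIs (0.756) and under the per-cell marker gate (0.933). Gjb6 had a ratio of 0.835 (0.712 to 0.979), and 0.627 with at most 5% mitochondrial UMIs, where it met the rule. The summed fibroblast markers themselves stood at 13067 CPM in control and 48950 CPM in mutant cells of this type, the pericyte markers at 4406 and 1005 CPM and the choroid plexus markers at 14108 and 2152 CPM. Their part in these ratios was not tested.

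**Figure D4:**
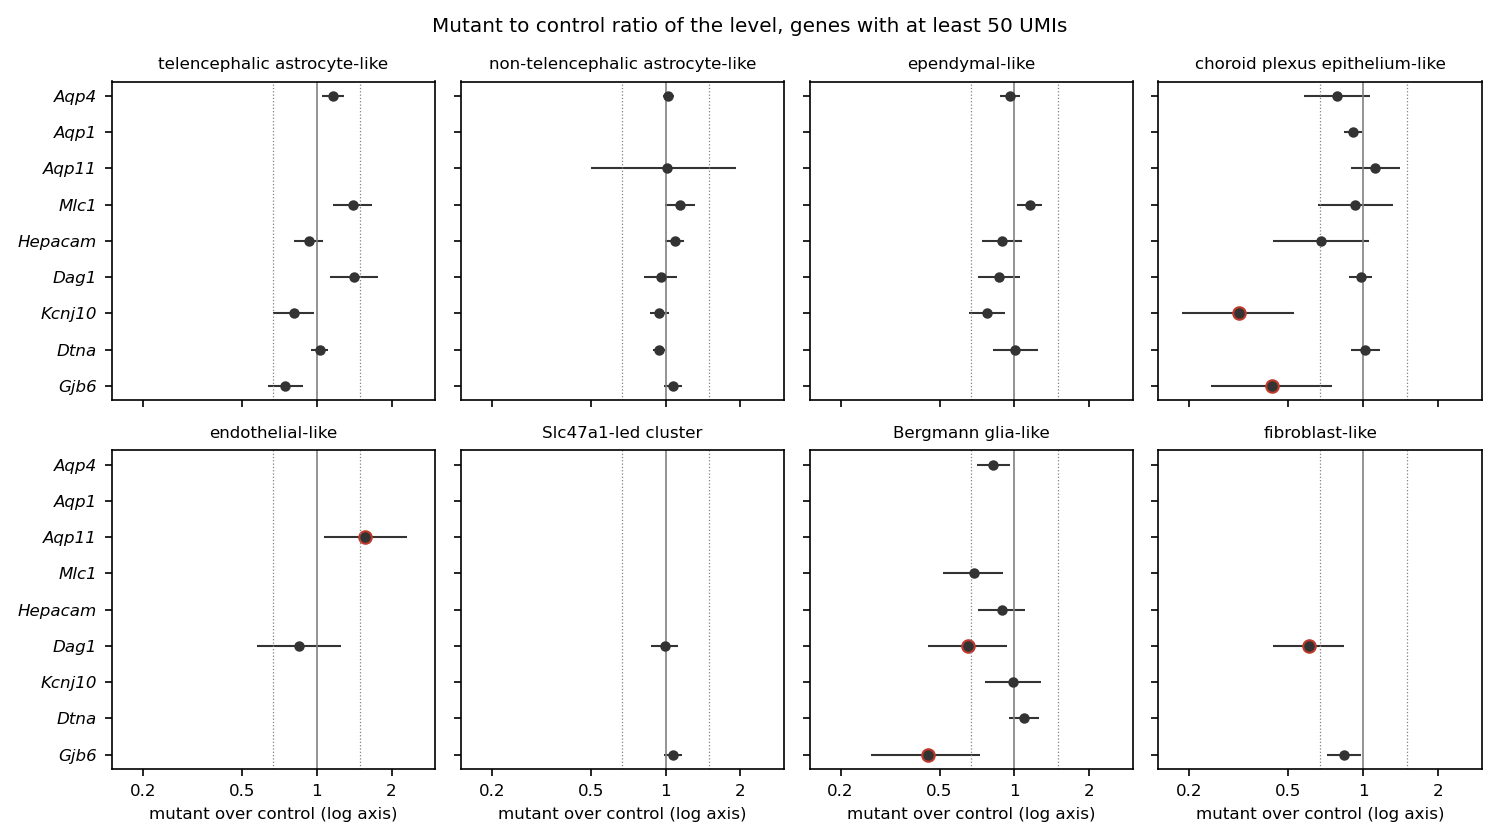
Mutant to control ratio (log axis) of each member with at least 50 UMIs in 8 cell types, with exact 95% intervals for 2 Poisson counts. Dotted lines mark 1.5-fold either way, and red rings mark the 6 ratios that meet the size rule: Kcnj10 and Gjb6 in choroid plexus epithelium-like, Aqp11 in endothelial-like, Dag1 and Gjb6 in Bergmann glia-like and Dag1 in fibroblast-like cells.

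In choroid plexus epithelium-like cells 2 of 9 measured members were lower in the mutant by the rule and 0 higher, against 1.78% of all genes lower and 1.77% higher. Kcnj10 stood at 4.38 CPM in control and 1.39 CPM in mutant (ratio 0.317, 0.187 to 0.525), and Gjb6 at 3.09 and 1.33 CPM (0.431, 0.244 to 0.747). Both lay below the microglia-like level of their library, which was 12.3 and 5.01 CPM for Kcnj10 and 6.14 and 2.32 CPM for Gjb6 and was itself lower in the mutant. Both are read as background. Aqp1, the member that the epithelium holds most of, had a ratio of 0.909 (0.837 to 0.988), Dag1 0.977 (0.878 to 1.09), Dtna 1.02 (0.890 to 1.17) and Aqp11 1.12 (0.890 to 1.41). Under the per-cell marker gate the Gjb6 ratio was 1.14, and with at most 5% mitochondrial UMIs 0 members were lower and 2 higher, Aqp4 at 3.47 and Dtna at 1.85.

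In endothelial-like cells 1 of 2 measured members met the rule, Aqp11 as higher, against 4.90% of all genes higher and 4.47% lower. It stood at 79.2 CPM in control, from 43 UMIs, and 124 CPM in mutant, from 87 UMIs (ratio 1.57, 1.08 to 2.31), with a UMI in 25.8% and 29.9% of cells. The call was lost when each cell weighed the same (1.38), without doublet removal (1.37) and without a cap on mitochondrial UMIs (1.42). Dag1 had 99.4 and 84.1 CPM there (0.846, 0.575 to 1.25). The summed astrocyte markers in endothelial-like cells were 1556 CPM in control and 783 CPM in mutant. In the Slc47a1-led cluster 0 of 2 met the rule, against 2.78% of all genes higher and 3.04% lower: Dag1 had a ratio of 0.991 (0.874 to 1.13) and Gjb6 1.07 (0.984 to 1.17).

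The astroglial members were lower in mutant than in control microglia-like cells, where they are background. Aqp4 was 15.8 and 6.78 CPM, Kcnj10 12.3 and 5.01 CPM, Dtna 7.84 and 2.59 CPM, Mlc1 4.54 and 1.60 CPM and Hepacam 3.76 and 1.44 CPM. The astrocyte markers Slc1a2 (62.8 and 23.8 CPM), Bcan (14.5 and 2.85), Aldoc (26.2 and 11.7) and Ntsr2 (7.84 and 2.19) moved with them. The astrocyte marker Slc1a3 did not, at 231 and 235 CPM, and the choroid plexus marker Ttr was 1869 and 2053 CPM. The 425 control and 160 mutant non-telencephalic cells are the largest source of Aqp4 UMIs. The part of their number in these levels was not tested.

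Genes that work with the members were taken from 4 lists, and their counts are to be read against the share of all genes that met the rule in the same type and direction. Of 16 partners of the dystrophin complex and laminins, 13 were measured in telencephalic cells, with 1 higher in the mutant, Dmd (dystrophin, 728 and 1106 CPM, ratio 1.52, 1.38 to 1.68), where 4.60% of all genes were higher. By the same rule 1 of the 13 was lower there, where 2.85% of all genes were. In non-telencephalic cells 0 of 14 met the rule, with Dmd at 1528 and 1450 CPM, and Dmd stood at 970 and 1220 CPM in ependymal-like cells. Lama2, the laminin alpha 2 gene, was lower in mutant ependymal-like cells (56.8 and 11.0 CPM, 0.193, 0.104 to 0.341), 1 of 11 measured, where 4.63% of all genes were lower. Lama2 stood at 695 and 684 CPM in non-telencephalic and at 915 and 1535 CPM in Bergmann glia-like cells, and the summed astrocyte markers in ependymal-like cells were 2065 and 1393 CPM. Their part in the ependymal-like Lama2 ratio was not tested. Sgcd, the gene of delta-sarcoglycan, was higher in choroid plexus epithelium-like cells (2.07, from 15 and 46 UMIs, 1 of 13, where 1.77% of all genes were higher). Sntb2 was lower in endothelial-like cells (0.612, 1 of 7, against 4.47% of all genes) and Sntg2 higher in the Slc47a1-led cluster (4.39, from 5 and 68 UMIs, 1 of 14, against 2.78%). In Bergmann glia-like cells 2 of 5 were higher, Sgcd (1.74) and Lama2 (1.68), where 8.06% of all genes were. In fibroblast-like cells 3 of 10 were higher, where 7.40% of all genes were: Dmd (27.6 and 72.2 CPM), Sgcd (36.8 and 285 CPM) and Lama2 (714 and 1192 CPM).

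Of 9 other aquaporins only Aqp9, a channel that also passes glycerol and lactate, was measured. Aqp9 stood at 48.2 and 40.6 CPM in telencephalic, 43.2 and 56.5 CPM in non-telencephalic and 45.4 and 54.5 CPM in Bergmann glia-like cells, and at 4.64 and 5.81 CPM in ependymal-like cells. It met the size rule in neither telencephalic nor non-telencephalic cells and was not measured in the others. Aqp8 and Aqp12 had 0 UMIs in every type described, Aqp3, Aqp5 and Mip had at most 3 in any type and library, and Aqp6 had 14 and 6 UMIs in non-telencephalic cells. Of 5 other glial connexins, Gja1 (connexin 43) stood at 1812 and 1679 CPM in telencephalic and 1803 and 2046 CPM in non-telencephalic cells, and at 1307 and 1239 CPM in the Slc47a1-led cluster. Gjb2 (connexin 26), by contrast, was low in telencephalic cells (10.7 and 14.2 CPM) and high where Gjb6 was high outside the glia: 509 and 448 CPM in fibroblast-like cells and 235 and 214 CPM in the Slc47a1-led cluster. Gja1 was lower in the mutant by the rule in choroid plexus epithelium-like (0.639, 1 of 1 measured, where 1.78% of all genes were lower) and endothelial-like cells (0.545, 1 of 1, where 4.47% were), where it stood at 9.79 and 6.26 CPM and at 131 and 71.3 CPM. In Bergmann glia-like cells it was lower as well, at 1273 and 792 CPM (0.623, 0.523 to 0.738, 1 of 2, where 6.58% of all genes were lower).

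Of 10 partners in potassium, chloride and volume handling, 8 were measured in telencephalic and in non-telencephalic cells. In telencephalic cells 2 were higher in the mutant: Lrrc8a, a volume-regulated anion channel subunit (53.3 and 85.4 CPM, 1.60, 1.10 to 2.30), and Slc12a2, the sodium-potassium-chloride cotransporter (17.2 and 63.0 CPM, 3.67, 2.20 to 6.08), where 4.60% of all genes were higher. The summed choroid plexus markers were 2343 and 4032 CPM there, and their part in the Slc12a2 ratio was not tested. In non-telencephalic cells 0 of 8 met the rule. In ependymal-like cells 3 of 6 were lower, where 4.63% of all genes were. Among the 3, Atp1b2, a sodium pump subunit, was lower (311 and 199 CPM, 0.642, 0.543 to 0.759), and so was the bicarbonate transporter Slc4a4 (278 and 122 CPM, 0.438, 0.360 to 0.533). Slc4a4 was also lower in choroid plexus epithelium-like (0.623, 1 of 7, where 1.78% of all genes were lower) and in endothelial-like cells (0.364, 0.211 to 0.608, among 2 of 5 lower, where 4.47% were). Atp1b2 was lower in the Slc47a1-led cluster (71.4 and 42.0 CPM, 0.589, 0.471 to 0.738, among 2 of 8 lower, where 3.04% of all genes were lower) and in Bergmann glia-like cells (1964 and 1140 CPM, 0.581, 1 of 6, where 6.58% were). In fibroblast-like cells 2 of 6 were lower, Atp1b2 (0.586) and Slc4a4 (0.437), where 8.58% of all genes were, and 2 of 6 higher, Atp1b1 (7.02) and Slc12a2 (1.78), where 7.40% were. Atp1b2 and Slc4a4 are abundant in astrocytes. The summed astrocyte markers were lower in the mutant in the same types, at 2065 and 1393 CPM in ependymal-like, 155 and 111 CPM in choroid plexus epithelium-like, 1556 and 783 CPM in endothelial-like, 1733 and 1528 CPM in Slc47a1-led and 2043 and 1640 CPM in fibroblast-like cells, and at 23496 and 21296 CPM in Bergmann glia-like cells. Their part in these ratios was not tested.

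The pattern of each member over the 13 named types in both libraries, 26 profiles of log2(CPM + 1), was compared with 14045 genes by Pearson's r, as a description in which profiles of a library share its depth and free RNA. The unnamed clusters were left out. Among these are the Npy-led cluster, where Aqp1, Aqp11 and Dag1 were highest, and the Slc47a1-led cluster. The pericyte-marked cluster, with Gjb6 between 0 and 22.1 CPM, was left out as well, so likeness does not extend to these cells. The genes most like Aqp4 were Gpr37l1 (0.969), Mlc1 (0.959) and Drp2 (0.951). Hepacam was most like Pcdh10 (0.959), Mmd2 (0.958) and Phyhipl (0.948), Kcnj10 most like Gpm6b (0.945), Itih3 (0.943) and Dnaaf9 (0.938), Dtna most like Npas3 (0.975), Plxnb1 (0.960) and Wasf3 (0.958), and Mlc1 most like Aqp4 itself, Slc25a18 (0.957) and Ppp1r14c (0.943). Outside the astroglial pattern, Gjb6 was most like Fndc5 (0.953), Pdgfrb (0.944) and F3 (0.927), Dag1 most like Nr1d1 (0.919), Plod2 (0.915) and Zfp521 (0.908), Aqp11 most like Epas1 (0.933), Ccdc141 (0.913) and Slco1c1 (0.907), and Aqp1 most like Cldn1 (0.865), Wfdc2 (0.845) and Etfb (0.839). Among the members, Aqp4 had an r of 0.910 with Hepacam, 0.880 with Kcnj10, 0.878 with Dtna, 0.786 with Dag1, 0.654 with Gjb6, 0.396 with Aqp11 and -0.365 with Aqp1.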

How the data were processed

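The deposited files are 10x matrices of whole-number UMI counts per gene and cell barcode, made by the authors with Cell Ranger 7.1.0, per the file headers, on GRCm38.p6 (mm10), per the submitters' processing notes. Whether introns were counted, how cells were called and whether free RNA was corrected is not given in the sources used here. A barcode was kept if it had 500 detected genes or more and no more than 10% mitochondrial UMIs. Doublets marked by Scrublet (2.62% of control and 2.52% of mutant barcodes) were removed. Cells of both libraries were clustered with scanpy 1.11.5 (2000 variable genes, 30 components, Leiden resolution 1). The 9 members, the genes of the 4 related lists, mitochondrial genes and some sex-linked genes were kept out of the variable genes. A cluster was named "like" a type when at least 3 markers were detected, and detection limits for markers were set after the data were seen. The name was withheld when a second type also had enough markers or when more leading genes belonged to another type. It was also withheld from a cluster of low UMI count with no leading marker of its own. Counts were summed per type and library. Intervals are exact at 95%: Poisson for levels, binomial for shares and for ratios of 2 counts. They cover counting error only, and with 1 library per genotype no test was made. The ratio script was tested on simulated data. Annotation was GENCODE M21, which held 25637 of the 26033 gene identifiers, and promoters were from RefSeq. Genes named are the members, those of 4 related lists that met the size rule or had the most UMIs, and the 3 genes most like each member. Gjb2, the other aquaporins, Csf1r and single markers were named after their values were seen. Genotypes were compared in 8 types, of which Bergmann glia-like and fibroblast-like were added after the data were seen. The members and lists were chosen with earlier results of these data known. Results for some genes of these lists are not reported here.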

Additional observations from a re-analysis of the deposited data

Results flagged for a closer look

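A small unnamed cluster led by Ptprq, with 10 mutant cells and none in the control, was used in no comparison. It held Aqp11 at 90.9 CPM, from 13 UMIs in 4 cells, and Dag1 at 83.9 CPM, from 12 UMIs in 6 cells, both above a floor of 3 UMIs. Dtna stood there at 167.9 CPM, from 24 UMIs in 4 cells.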

How the results depend on the processing

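No paired analysis was possible because each genotype has 1 library, and for the same reason no replicate could be left out. Each change below was made alone, and the cause of a changed count was not tested. With genes of at least 20 UMIs, 1 member was lower in ependymal-like cells, 1 lower in endothelial-like cells, 1 higher and 1 lower in the Slc47a1-led cluster, and 1 higher in fibroblast-like cells. With equal weight per cell 0 members were higher in endothelial-like cells. Without doublet removal 0 were higher there and 2 lower in the Slc47a1-led cluster. With at most 5% mitochondrial UMIs 2 were higher in non-telencephalic cells, in choroid plexus epithelium-like cells 2 were higher and 0 lower, and in fibroblast-like cells 2 were lower. With no cap, 1 was lower in ependymal-like, 5 in choroid plexus epithelium-like, 1 in endothelial-like (0 higher), 2 in Slc47a1-led, 1 in Bergmann glia-like and 3 in fibroblast-like cells (1 higher). With the per-cell marker gate 3 were lower in telencephalic, 1 in Bergmann glia-like and 0 in fibroblast-like cells, and 1 was higher in non-telencephalic cells, the Gjb6 ratio in choroid plexus epithelium-like cells turned to 1.136, and the mutant Mlc1 ratio of telencephalic over non-telencephalic cells to 0.9964. With Leiden resolution 2, 1 member was lower in telencephalic than non-telencephalic cells in both libraries. The alternatives to the comparisons of cell types were chosen after seeing the data. Of the counts of members, 153 were within 1.5 times the reported count and 25 were not. Of the mutant to control ratios, 323 stayed inside the interval of the reported value, 42 left it and 1 that had met the rule turned to the other side of 1. Of the ratios between types, 143 stayed inside, 36 left it and 1 that had met the rule turned. Of the shares of cells with a UMI, 17 left their interval when cells were thinned and 1 stayed inside. The telencephalic and ependymal-like types at 5% and the Slc47a1-led cluster under the gate had too few cells and were not run.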

Other observations

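Barcodes above the cap of 10% mitochondrial UMIs, clustered without the cap, also held the astroglial members. Among 787 control and 108 mutant barcodes of the non-telencephalic type above the cap, Aqp4 stood at 1691 CPM (1660 to 1722) and 1420 CPM (1332 to 1512), Kcnj10 at 639 and 486 CPM, and Gjb6 at 644 and 482 CPM. At or below the cap in the same clustering, Aqp4 was 1403 CPM in 410 control and 1449 CPM in 152 mutant barcodes. Above it, Mlc1 of this type was 251 and 168 CPM and Dtna 1078 and 1221 CPM. In 170 control and 20 mutant telencephalic barcodes above the cap, Aqp4 was 891 and 489 CPM. Gjb6 was 468 and 237 CPM there, and Dtna 1458 and 1971 CPM. In 52 and 18 ependymal-like ones, Mlc1 was 496 and 277 CPM and Dag1 157 and 193 CPM. The cap kept these barcodes out of the main comparison of the libraries.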
